A study of Homo sapiens with 4 samples.

Results

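The 31 genes described here make, sense and move cholesterol: 18 enzymes from acetoacetyl-CoA to cholesterol, 1 enzyme of the geranylgeranyl branch, 5 genes of the sterol sensor that controls the pathway, 4 genes of sterol transport and storage, and 3 genes of the oxysterol receptors and the decay of lipoprotein receptors. They were listed by name from knowledge of the pathway, each symbol matched 1 Ensembl gene, and all 31 were among the 14269 genes tested of 60279 in the count tables. RNA-seq was run on SUM159, an established human triple-negative breast cancer line, in 4 conditions with 1 library each. The cells were untreated, treated with palbociclib, an inhibitor of CDK4 and CDK6 that blocks entry into S phase, treated with indisulam, a sulfonamide that leads to degradation of the splicing factor RBM39, or treated with both drugs. The study asked how indisulam and palbociclib act together on tumor cells. GEO holds 2 accounts of the treatment. The labels give 0.5 µM palbociclib, 2 µM indisulam and 10 days, while the series text gives 2 µM, 3 µM and 16 h. In the paper these are 2 experiments. It gives the label values for the SUM159 RNA-seq on senescence signatures, and the series values for the RNA-seq on splicing errors. Which of them the libraries belong to is not stated, so the dose and duration behind every value here are uncertain. All groups, the untreated one included, were cells of 1 line grown in the same serum-containing medium with insulin and hydrocortisone.

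Cells make cholesterol from acetyl-CoA through mevalonate, isoprenoid phosphates, squalene and lanosterol. The transcription factors SREBP1 and SREBP2, the products of SREBF1 and SREBF2, switch on these enzymes. They are held in the endoplasmic reticulum by SCAP and the INSIG proteins while sterols are plentiful, and are carried to the Golgi and cut free when sterols run low. INSIG1 is itself a classical SREBP target, whereas INSIG2 is known to be less dependent on SREBP. SREBP2 is best known for sterol genes and SREBP1 for fatty acid genes. The liver X receptors (LXR) answer oxysterols and are known to raise SREBF1 transcription.

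Promoter windows of 300 bases, from 250 before to 50 after the annotated start, are shown for the 4 synthesis and control genes with the lowest palbociclib ratios among those with an entry. They were read from RefSeq on build GRCh38.p14, where 28 of the 31 members had an entry. ACAT2, FDFT1 and SQLE had none. The windows of INSIG1 (chr7:155297628-155297927, plus strand), SREBF1 (chr17:17836937-17837236, minus strand), DHCR7 (chr11:71448344-71448643, minus strand) and SREBF2 (chr22:41832855-41833154, plus strand) read 5′ to 3′ along the gene, with searched motifs in capitals:
INSIG1: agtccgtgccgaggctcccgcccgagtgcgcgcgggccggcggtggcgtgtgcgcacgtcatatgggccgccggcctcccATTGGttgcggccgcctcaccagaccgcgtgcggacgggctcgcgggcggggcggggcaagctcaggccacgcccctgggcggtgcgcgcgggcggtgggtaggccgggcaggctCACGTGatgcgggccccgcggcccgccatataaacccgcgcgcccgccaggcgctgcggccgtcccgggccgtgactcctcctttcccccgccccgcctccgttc
SREBF1: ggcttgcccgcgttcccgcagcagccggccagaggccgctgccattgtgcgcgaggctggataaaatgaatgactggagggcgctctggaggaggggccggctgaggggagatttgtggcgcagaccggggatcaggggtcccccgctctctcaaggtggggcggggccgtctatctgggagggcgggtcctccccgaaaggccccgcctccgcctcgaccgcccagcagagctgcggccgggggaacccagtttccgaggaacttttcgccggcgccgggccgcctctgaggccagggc
DHCR7: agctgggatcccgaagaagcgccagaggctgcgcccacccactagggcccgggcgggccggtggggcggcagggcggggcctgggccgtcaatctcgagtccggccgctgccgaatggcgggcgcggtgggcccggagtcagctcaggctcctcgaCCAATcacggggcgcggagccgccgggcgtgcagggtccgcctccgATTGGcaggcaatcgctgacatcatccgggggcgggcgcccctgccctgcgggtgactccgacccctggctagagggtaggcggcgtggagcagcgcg
SREBF2: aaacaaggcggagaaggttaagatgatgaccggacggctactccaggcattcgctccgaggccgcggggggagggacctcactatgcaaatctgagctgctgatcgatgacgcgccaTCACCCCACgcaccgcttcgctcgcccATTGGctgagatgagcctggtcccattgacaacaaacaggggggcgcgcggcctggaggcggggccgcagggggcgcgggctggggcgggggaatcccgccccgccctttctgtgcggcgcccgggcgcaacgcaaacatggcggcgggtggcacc
The motifs were the core of the sterol regulatory element (TCACNCCAC), the CCAAT box (CCAAT) and the palindromic E-box (CACGTG), each searched on both strands with no overlap between them. The SREBF2 window held the only sterol element core among the members (TCACCCCAC, bases -133 to -125 from the start), in a set where 1.13% of 35116 windows held one. It also held a CCAAT box at -106 to -102. The INSIG1 window held a CCAAT box at -170 to -166 and an E-box at -55 to -50. At least 1 window held a CCAAT box for 21 of the 28 members with an entry, against 34.6% of all windows. For the E-box it was 4 members (INSIG1, LSS, SC5D and SCAP), against 7.26% of all windows. Members were counted by gene and the full set by window, so these shares are not like for like. DHCR7 had CCAAT boxes at -94 to -90 and -48 to -44 in the window shown and none of the motifs in a second annotated window (chr11:71448994-71449293). The SREBF1 window had none of these letters, which says nothing of whether a factor binds there.

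The libraries held 12555908 to 16712174 reads in genes, and 9.61% to 10.1% of reads fell outside genes, in several genes or at several places. Levels are given as CPM, the read count of a gene relative to the total over genes, and differences as the log2 ratio of scaled counts with 1 added. A gene was called changed when it differed at least 2-fold and the 95% counting interval of its ratio left out a ratio of 1. With 1 library per condition there was no replicate and no p-value, and intervals cover counting error only. As a guide to the spread that counting misses, the scatter of all genes of like level around additive drug effects bounded the spread of a single log2 ratio at 0.62 for genes of 1 to 5 CPM, 0.37 for 5 to 20, 0.26 for 20 to 100 and 0.28 above. Gene positions are those of GENCODE 44 on GRCh38. In bulk RNA, fewer cells expressing a gene and less RNA per cell cannot be told apart. The line carried VIM (2643 to 4598 CPM), KRT8, KRT18, CD44 and EGFR, and ESR1 and PGR were at or under 1.11 CPM in every library. EPCAM was at or under 1.12 CPM and CDH1 at or under 1.95 CPM. ERBB2 was read at 110 to 143 CPM and COL1A1, better known from fibroblasts, at 1246 to 2807 CPM. PTPRC of blood cells was at 11.1 to 17.5 CPM and PECAM1 of endothelium at 15.2 to 40.9 CPM. Summed over COL1A1, PTPRC and PECAM1 the level was 1822 CPM untreated, 2860 with palbociclib, 2183 with indisulam and 1278 with both drugs, none of the 3 was at 0, and their part in the results was not tested.

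The summed level of the sterol genes was lower in each treated library than in untreated cells, more so for the control genes than for the enzymes. The sum of the transport genes was lower than untreated with palbociclib only. Summed over the 31 genes the level was 2603 CPM in untreated cells, 1561 under palbociclib, 2024 under indisulam and 1515 under both drugs. The untreated library held the highest level for 22 of 31 genes, or 71%, against 26.2% of all genes tested. With palbociclib 6 members were lower at 2-fold and none higher, which is 19.4% of the list against 4.87% lower and 5.84% higher of all genes tested. With indisulam 3 were lower and none higher, 9.68% against 6.67% lower and 8.42% higher, and 5 were lower under each of the other scalings of the libraries, where INSIG1 and ACAT2 passed the threshold. With both drugs 10 were lower and none higher, 32.3% against 10.5% lower and 12.9% higher. The median log2 ratio of the members was -0.56, -0.25 and -0.49 for palbociclib, indisulam and the combination, where the median of all genes tested was -0.02, 0.06 and 0.05. These 3 comparisons share the untreated library. At a threshold of 1.5-fold, 14 members were lower with palbociclib (12.1% of all genes), 9 with indisulam (14.1%) and 15 with the combination (19.2%). For indisulam at 2-fold the share depended on the scaling, since the 5 members lower under each other scaling are 16.1% of the list, against 7.53% to 7.6% of all genes.

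**Figure D1:**
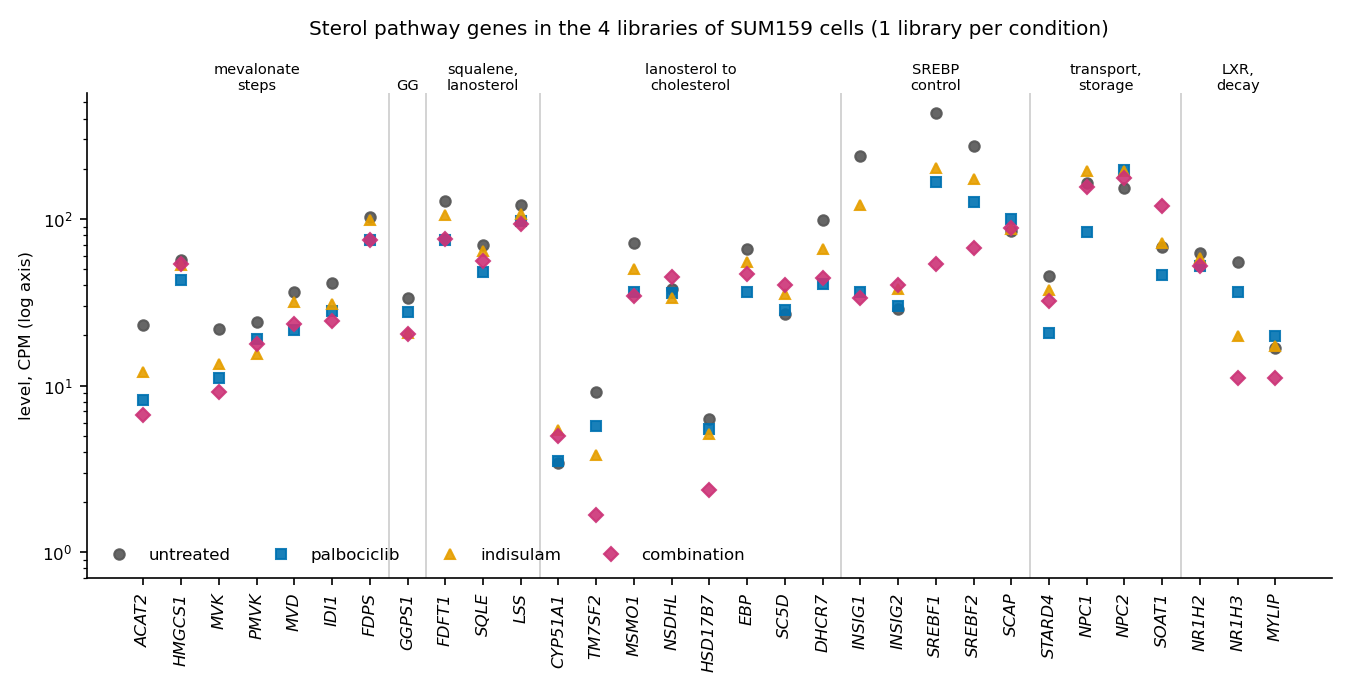
Level of each of the 31 genes (CPM, log axis) in the 4 libraries, in pathway order; GG marks the geranylgeranyl branch, and each point is 1 library. The untreated library is highest for 22 genes, and the 4 libraries of INSIG1 spread from 33.8 to 238 CPM while those of SCAP lie between 84.9 and 100.3 CPM.

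INSIG1, SREBF1 and SREBF2 made up 945 CPM of the untreated total and 154 CPM of the combination total. INSIG1 (chr7:155297776-155310235), the sterol-dependent anchor of SCAP, was read at 238 CPM in untreated cells, 36.6 under palbociclib, 121 under indisulam and 33.8 under both drugs. Both libraries with palbociclib were low and close to each other, and the indisulam library lay between them and the untreated one. Its log2 ratio was -2.70 with palbociclib (interval -2.84 to -2.56), the 28th lowest of the 14269 genes, and -2.81 with the combination (-2.96 to -2.68). With indisulam it was -0.98 (-1.06 to -0.90), just short of a call. Added to palbociclib, indisulam left INSIG1 at a log2 ratio of -0.12 (-0.30 to 0.07).

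SREBF1 (chr17:17810399-17837002), which encodes SREBP1, was read at 432 CPM untreated, 167 with palbociclib, 203 with indisulam and 53.4 with both. It was lower with each drug and the combination library was the lowest of the 4. The log2 ratios to untreated were -1.37 (-1.45 to -1.30), -1.09 (-1.16 to -1.03) and -3.02 (-3.13 to -2.91), the last being the 91st lowest of all genes tested. SREBF1 also fell in both comparisons within treated cells, by 1.64 on the log2 scale when indisulam was added to palbociclib and by 1.92 when palbociclib was added to indisulam. It was the only member called in all 5 comparisons, and TM7SF2 was called in 4.

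SREBF2 (chr22:41833105-41907306), which encodes SREBP2, followed at 274 CPM untreated, 126 with palbociclib, 173 with indisulam and 66.9 with both. Its order across libraries was that of SREBF1. Palbociclib gave a log2 ratio of -1.13 (-1.21 to -1.04) and the combination one of -2.04 (-2.14 to -1.93), both called, whereas -0.66 (-0.73 to -0.59) for indisulam was not called. Per kilobase of exon, SREBF1 stood at 1.54 times SREBF2 in untreated cells (1.48 to 1.61), 1.30 with palbociclib, 1.14 with indisulam and 0.781 with both (0.710 to 0.860), so the order of the pair turned in the combination library.

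INSIG2 and SCAP were not called in any comparison. INSIG2 (chr2:118088452-118110997) was read at 28.8, 30.0, 37.8 and 40.2 CPM in the untreated, palbociclib, indisulam and combination libraries. Its highest ratio was 0.48 (0.29 to 0.68), in the combination. Per kilobase of exon INSIG1 stood at 8.96 times INSIG2 in untreated cells (8.03 to 10.0), 3.45 with indisulam, 1.32 with palbociclib and 0.909 with both drugs (0.804 to 1.03). SCAP (chr3:47413681-47477126), the escort that carries SREBP to the Golgi, was read at 84.9, 100.3, 86.6 and 88.2 CPM, and its ratios to untreated were 0.24, 0.03 and 0.05. The SREBP control genes thus split into 3 called lower in the combination and 2 within 1.5-fold of untreated in every library. The 3 are 60% of these genes, against 10.5% of all genes lower in the combination.

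**Figure D2:**
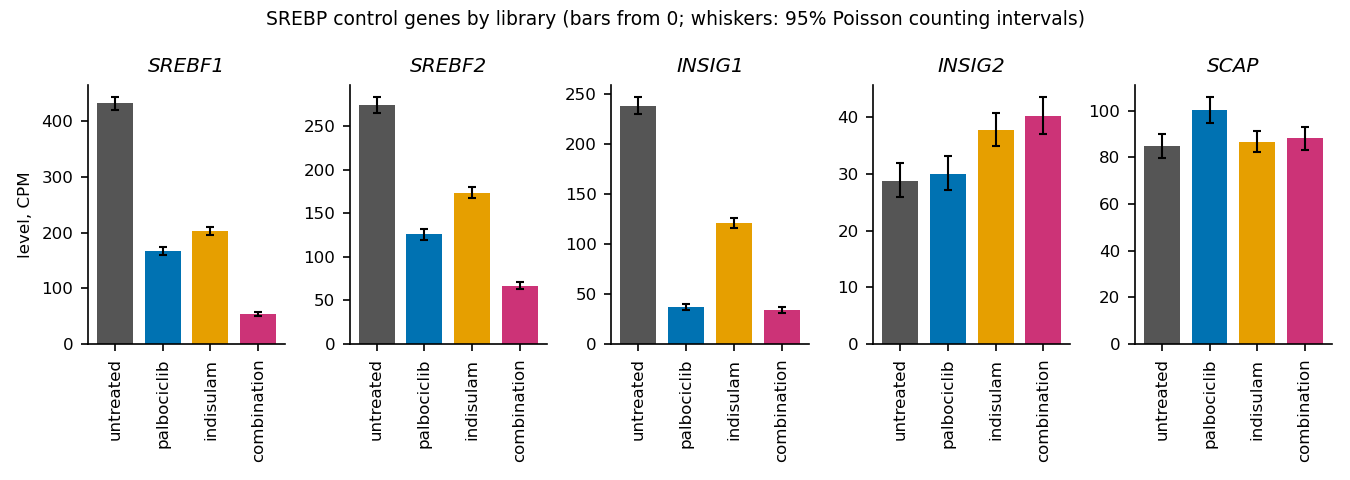
Level of the 5 SREBP control genes (CPM, bars from 0) in each library, with whiskers for the 95% Poisson counting interval of the 1 library. SREBF1, SREBF2 and INSIG1 are highest in the untreated library and lowest with both drugs, while INSIG2 (28.8 to 40.2 CPM) and SCAP (84.9 to 100.3 CPM) stay in a narrow range.

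The 18 enzymes of cholesterol synthesis summed to 945 CPM untreated, 619 with palbociclib, 788 with indisulam and 655 with both drugs. The combination total was not below the palbociclib total, unlike that of the control genes (1059, 460, 621 and 282 CPM). The untreated library was the highest for 15 of the 18. At 2-fold, 2 fell with palbociclib (11.1% against 4.87% of all genes), 1 with indisulam (5.56% against 6.67%) and 6 with the combination (33.3% against 10.5%), and none rose. Their median log2 ratios were -0.56, -0.26 and -0.57.

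All 7 genes of the mevalonate steps had ratios below 0 in each of the 3 drug libraries, though few were called. ACAT2 (chr6:159762045-159779112), the cytosolic thiolase that starts the pathway, was read at 23.3 CPM untreated, 8.19 with palbociclib, 12.0 with indisulam and 6.69 with both. It fell with palbociclib (log2 ratio -1.50, -1.84 to -1.18) and with the combination (-1.79, -2.15 to -1.46), and its indisulam ratio of -0.95 missed the call. MVK (chr12:109573255-109598125), the mevalonate kinase, was read at 22.0, 11.1, 13.5 and 9.19 CPM in the same order of libraries. It was called only in the combination (-1.25, -1.57 to -0.95), with a palbociclib ratio of -0.98 just outside the threshold. HMGCS1, the HMG-CoA synthase, is a textbook SREBP target and was read at 43.0 to 56.6 CPM with ratios of -0.40, -0.10 and -0.07. PMVK, MVD, IDI1 and FDPS, which carry mevalonate on to farnesyl diphosphate, had ratios between -0.76 and -0.05. Part of the ACAT2 exons (17.2%) lie opposite TCP1 and part of the HMGCS1 exons (37.7%) opposite another gene, and whether counting used strand is not given.

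GGPS1, which makes geranylgeranyl diphosphate for protein prenylation, was not called, with ratios of -0.28, -0.69 and -0.73. The squalene and lanosterol steps, FDFT1 (squalene synthase), SQLE (squalene epoxidase) and LSS (lanosterol synthase), were not called either. FDFT1 had the lowest ratios of the 3, -0.78 with palbociclib and -0.76 with the combination, against -0.28 with indisulam. SQLE and LSS lay between -0.55 and -0.13.

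The 8 genes from lanosterol to cholesterol were the most mixed. In the combination 4 were called lower (50%, against 10.5% of all genes) and 3 lay above untreated. DHCR7 (chr11:71428193-71452868), which reduces 7-dehydrocholesterol to cholesterol, was read at 98.4 CPM untreated, 40.6 with palbociclib, 66.1 with indisulam and 44.4 with both drugs. As with INSIG1, both libraries with palbociclib were low and alike, with log2 ratios of -1.28 (-1.43 to -1.13) and -1.15 (-1.29 to -1.01). MSMO1 (chr4:165327667-165343164), a C4-methyl sterol oxidase, was read at 71.8, 36.5, 50.1 and 34.7 CPM. Its palbociclib ratio of -0.98 (-1.14 to -0.81) and its combination ratio of -1.05 (-1.21 to -0.89) differed little, and the second alone passed the threshold.

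TM7SF2 and HSD17B7 had the lowest level in the combination library by a wide margin. TM7SF2 (chr11:65111845-65116384), a sterol C14 reductase, was read at 9.16, 5.75, 3.83 and 1.67 CPM, or 115, 73, 64 and 24 reads. It fell with indisulam (-1.24, -1.72 to -0.80) and with the combination (-2.41, -3.15 to -1.81). It fell further when indisulam was added to palbociclib (-1.74) and when palbociclib was added to indisulam (-1.16). HSD17B7 (chr1:162790702-162812823), a 3-ketosteroid reductase, was read at 6.29, 5.52 and 5.15 CPM in the first 3 libraries and at 2.37 CPM with both drugs. Neither drug alone was called (-0.19 and -0.29), and the combination was (-1.38, -2.03 to -0.81). These are low counts, 79, 70, 86 and 34 reads, and reads shared with the 2 HSD17B7 pseudogenes of the annotation were not counted.

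SC5D, the lathosterol oxidase, ran the other way with 26.8, 28.6, 35.5 and 40.2 CPM and ratios of 0.10, 0.41 and 0.59, none called. NSDHL and EBP, a C4 decarboxylating dehydrogenase and a sterol isomerase, were not called, at 33.7 to 44.6 and 36.4 to 65.9 CPM. CYP51A1, the lanosterol demethylase, was counted at only 3.42 to 5.39 CPM. GENCODE 44 places other genes of the same strand on up to 68.2% of its exonic bases, but those genes were not among the genes counted here. It also names 3 pseudogenes after CYP51A1, and reads at several places were not counted, so the level of CYP51A1 here is uncertain.

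**Figure D3:**
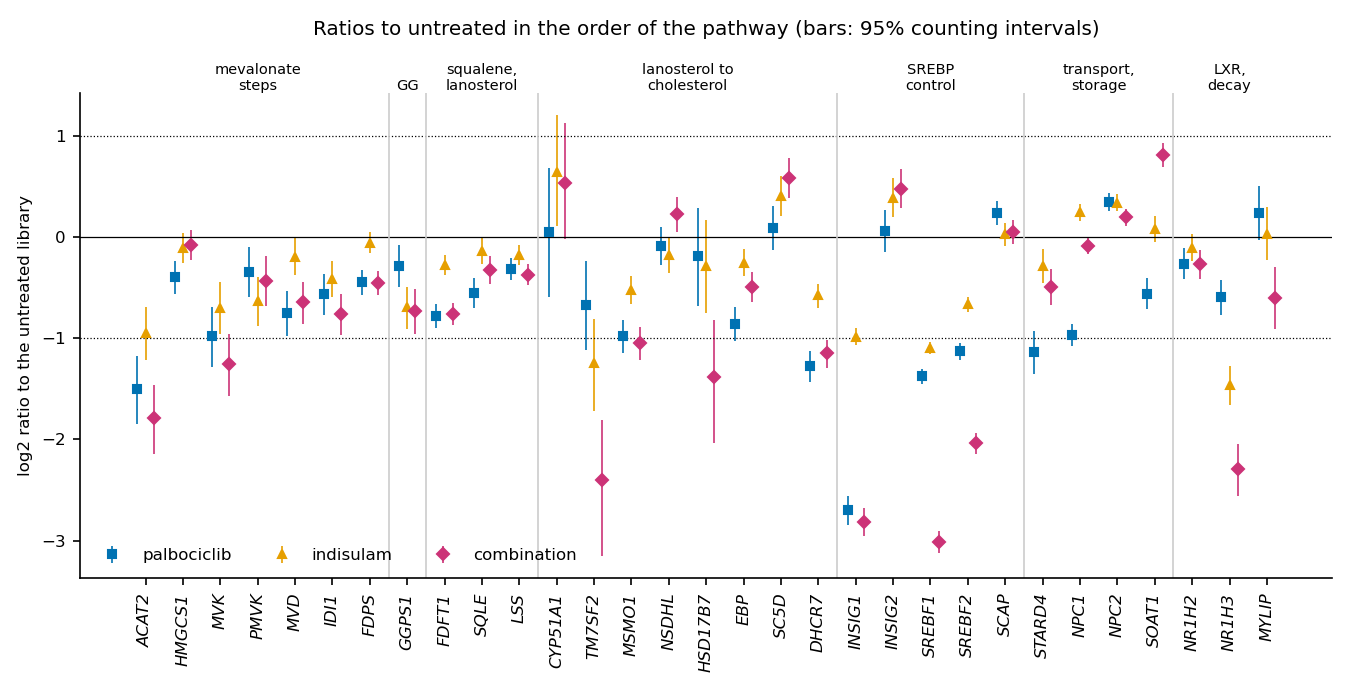
Log2 ratio of each drug library to the untreated library for the 31 genes in pathway order, with 95% counting intervals; dotted lines mark 2-fold. The lowest points are SREBF1 (-3.02) and INSIG1 (-2.81) with the combination, and the squalene and lanosterol steps lie between -0.78 and -0.13.

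Sterol transport and storage went down as a sum with palbociclib, and not with indisulam or the combination. With palbociclib the median ratio was -0.76, and 3 of 4 genes were below 0. The 4 genes summed to 431 CPM untreated, 346 with palbociclib, 499 with indisulam and 483 with both. STARD4 (chr5:111496033-111512590), a soluble carrier of sterol between membranes, was read at 45.6, 20.7, 37.5 and 32.4 CPM. It fell with palbociclib (-1.13, -1.35 to -0.92), and with both drugs the ratio was -0.49 (-0.67 to -0.31). NPC1, which exports cholesterol from lysosomes, had a palbociclib ratio of -0.97 (-1.08 to -0.86), just short of a call, and ratios of 0.25 and -0.08 with indisulam and the combination. Its partner NPC2 was read at 154 to 196 CPM and was lowest in untreated cells, with ratios of 0.20 to 0.35.

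SOAT1 (chr1:179293714-179358680), which esterifies cholesterol for storage in lipid droplets, was the only member called higher in any comparison. It was read at 68.0 CPM untreated, 46.2 with palbociclib, 72.2 with indisulam and 119 with both drugs. Palbociclib alone gave the lowest library and the combination the highest. Its log2 ratio was 1.37 (1.23 to 1.51) for the combination against palbociclib, where 9.51% of all genes were higher, and 0.81 (0.69 to 0.93) for the combination against untreated, which was not called.

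NR1H3 (chr11:47248300-47269033), which encodes LXR alpha, was read at 54.8 CPM untreated, 36.3 with palbociclib, 19.8 with indisulam and 11.1 with both. It fell with indisulam (-1.46, -1.66 to -1.28), with the combination (-2.29, -2.56 to -2.05) and when indisulam was added to palbociclib (-1.70, -1.97 to -1.44). Palbociclib ratios were -0.59 without and -0.83 with indisulam, neither called. NR1H2, which encodes LXR beta, was read at 52.2 to 62.8 CPM and was not called. Per kilobase of exon the receptors stood nearly level in untreated cells, at 12.1 CPM for NR1H3 and 11.8 for NR1H2, and at 2.46 and 9.77 with both drugs. MYLIP, a ubiquitin ligase that marks lipoprotein receptors for decay, was read at 16.9, 19.9, 17.3 and 11.1 CPM and was not called.

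Among treated cells, 4 members were lower when indisulam was added to palbociclib (TM7SF2, HSD17B7, SREBF1 and NR1H3) and SOAT1 was higher, 12.9% lower against 7.36% of all genes tested. The median of the members was -0.06, against 0.07 for all genes. When palbociclib was added to indisulam 5 were lower (INSIG1, SREBF1, SREBF2, TM7SF2 and HSD17B7) and none higher, 16.1% against 3.15% lower and 5.05% higher of all genes, with a median of -0.33 against -0.01. At 1.5-fold, 6 members were lower in the first of these comparisons (14.4% of all genes) and 8 in the second (10.1%).

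Each drug was thus measured in 2 comparisons that share no library, once without and once with the other drug. For palbociclib, INSIG1, SREBF1 and SREBF2 were lower in both, with ratios of -2.70 and -1.83, -1.37 and -1.92, and -1.13 and -1.37. That is 3 of 31 members, where 1.24% of all genes were lower in both and 2.03% higher in both. For indisulam, SREBF1, NR1H3 and TM7SF2 were lower in both, with ratios of -1.09 and -1.64, -1.46 and -1.70, and -1.24 and -1.74, where 3.64% of all genes were lower in both and 4.89% higher. SREBF1 was the only member on both lists. No member was higher in both comparisons of a drug or called in opposite directions. Without a threshold, 21 members (67.7%) had ratios below 0 in both palbociclib comparisons, against 35.3% of all genes, and 15 (48.4%) in both indisulam comparisons, against 32.2%. Above 0 in both were 3 members for palbociclib and 5 for indisulam.

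**Figure D4:**
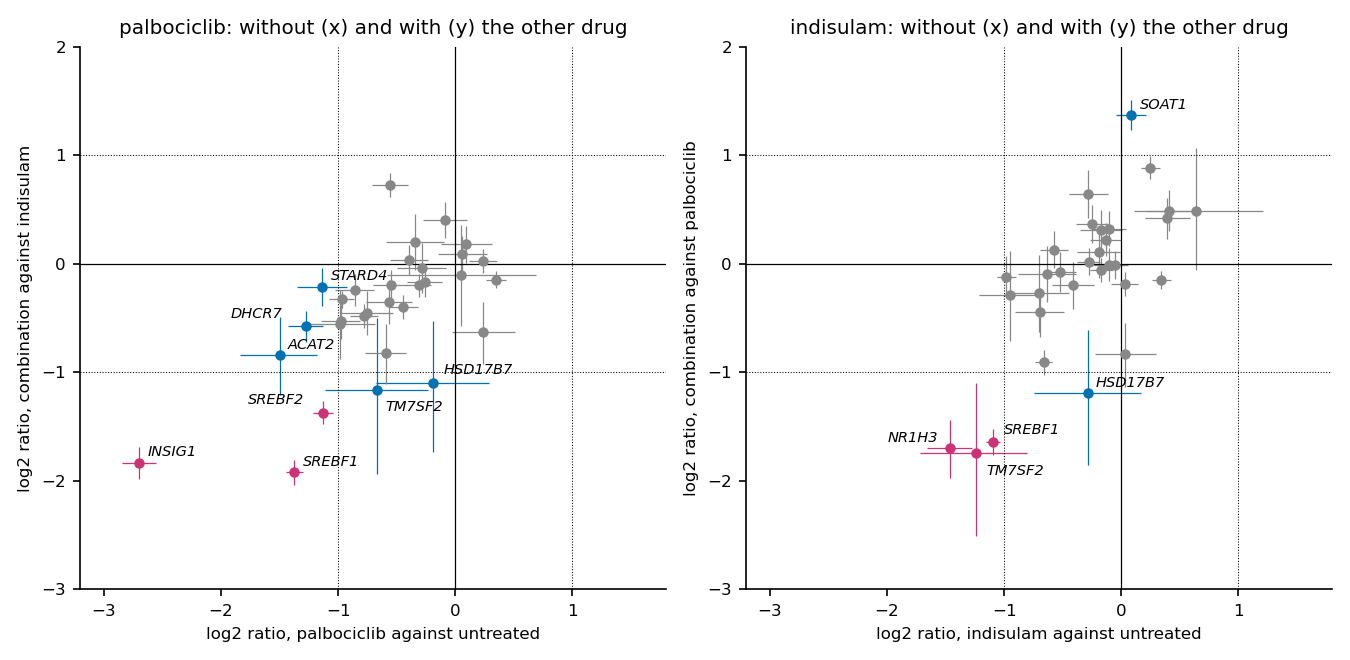
Log2 ratio of each member for palbociclib (left) and indisulam (right), without the other drug on the x axis and with it on the y axis, with 95% counting intervals; red points are called in both, blue in 1, grey in none, and dotted lines mark 2-fold. INSIG1 lies at -2.70 and -1.83 on the left, and SOAT1 at 0.09 and 1.37 on the right.

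The departure from additivity is the log2 ratio of the combination minus the sum of those of both single drugs. Only SOAT1 was called, above the sum by 1.28 (1.10 to 1.47), where 3.83% of all genes were above and 3.77% below. The robust spread of departures over genes of its level was 0.37, so SOAT1 stood at 3.47 times that spread. Above the sum STARD4 (0.92, 0.65 to 1.20) and INSIG1 (0.86, 0.66 to 1.06) came next. Below it lay HSD17B7 (-0.91, -1.64 to -0.18) and MYLIP (-0.87, -1.25 to -0.49), then SREBF1 at -0.55 (-0.68 to -0.41), and SREBF2 at -0.25 (-0.38 to -0.11). The interval lay above 0 for 15 members, or 48.4%, and below 0 for 6, against 23% and 22.6% of all genes tested.

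**Figure D5:**
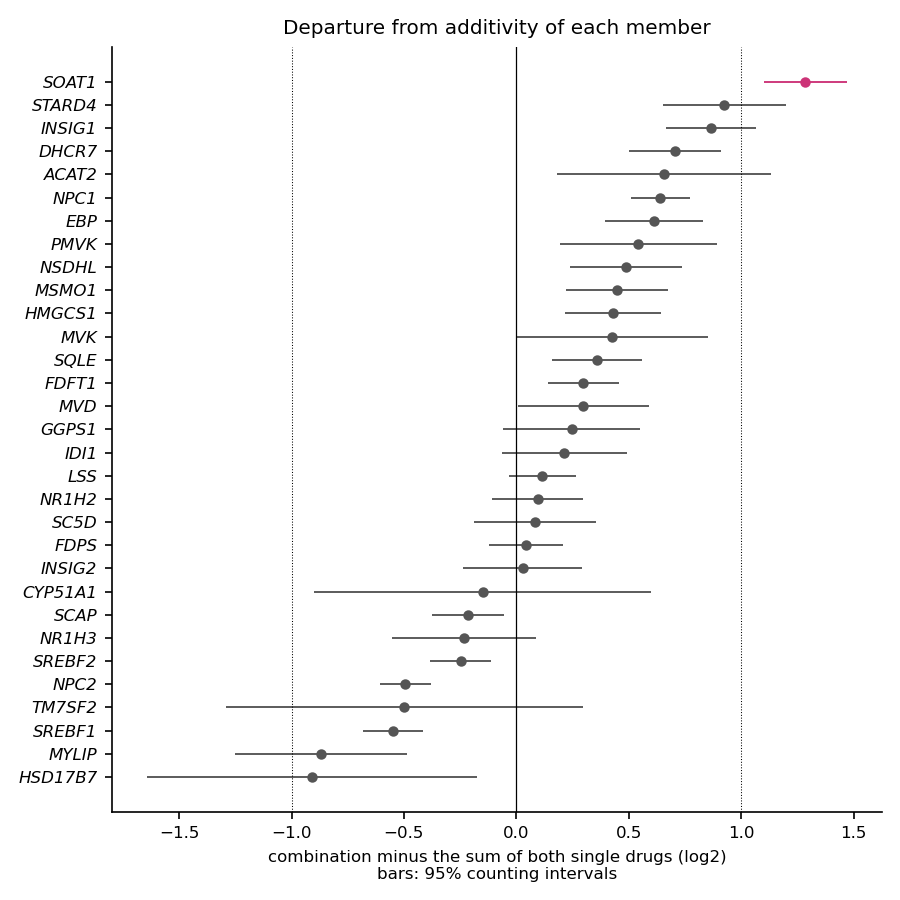
Departure from additivity (log2) of each member with its 95% counting interval, ordered by value; dotted lines mark 2-fold. SOAT1 alone (1.28, red) is called, and HSD17B7 at the low end (-0.91) has a wide interval from few reads.

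A set of 5 proliferation genes (MKI67, TOP2A, CCNB1, CDK1 and PLK1) moved with some of these comparisons and not others. Their sum was 678 CPM untreated, 265 with palbociclib, 826 with indisulam and 573 with both drugs. With palbociclib 4 of 5 fell (median -1.41), whereas in the combination none was called (median 0.04). NPC1, at 163.5, 83.6, 194 and 154.6 CPM, had the same order of libraries as this sum. Palbociclib alone was the lowest library for 9 members, NPC1, STARD4, EBP and DHCR7 among them, and the combination for 15. INSIG1, DHCR7 and MSMO1 were low in both libraries with palbociclib, at proliferation sums of 265 and 573 CPM. The part of proliferation in the sterol gene ratios was not tested.

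Genes around the pathway were counted from lists of known function. Among all genes tested, 5.84% were higher and 4.87% lower with palbociclib, and 12.9% and 10.5% with the combination. For the combination against palbociclib 9.51% were higher. In the combination, 11.1% of the SREBP and INSIG machinery list, 8.33% of the isoprenoid list and 7.14% of the other transport list were higher. Of 6 other sterol synthesis genes, all had ratios below 0 in each drug library, and none was called with palbociclib. With indisulam 2 of the 6 were lower (33.3%, against 6.67% of all genes). With the combination 3 were lower (50%, against 10.5%). POR, the electron donor of CYP51A1 and SQLE, fell with the combination (-1.01). FAXDC2 was read at 28.7, 19.9, 6.76 and 5.22 CPM and fell in both comparisons of indisulam (-2.07 and -1.92). Of 9 other genes of the SREBP and INSIG machinery, which include the proteases that cut SREBP, none fell in any comparison and 1, PAQR3, rose in the combination against untreated (1.41) and against palbociclib (1.59), with 45.5% of its exonic bases opposite BMP2K. Of 12 genes of isoprenoid branches, ZMPSTE24, a protease of prenylated proteins, rose with palbociclib (1.15) and the combination (1.53), and COQ2 of ubiquinone synthesis fell with the combination (-1.04). Of 15 other transport and storage genes SOAT2 was below the filter. Of the 14 tested, GRAMD1B fell with palbociclib, none was called with indisulam, and NCEH1 rose (1.61) and GRAMD1C fell (-3.19) with the combination. The GRAMD1C ratio rests on 71 reads untreated and 8 with both drugs, with an interval of -4.61 to -2.29. NCEH1, a neutral cholesterol ester hydrolase, was read at 13.8, 13.9, 18.6 and 42.2 CPM, and like SOAT1 was highest with both drugs. The genes of this paragraph other than FAXDC2 were named after their values were seen.

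The 10 fatty acid genes known as SREBP targets summed to 3431 CPM untreated, 1412 with palbociclib, 1635 with indisulam and 1081 with both. With palbociclib 2 fell (SCD and FASN), with indisulam 5 and with the combination 4, and none rose, where 4.87%, 6.67% and 10.5% of all genes were lower. SCD, the stearoyl-CoA desaturase, was read at 1206, 227, 557 and 174 CPM and fell in both palbociclib comparisons (-2.41 and -1.68). ACSS2, which makes acetyl-CoA from acetate, was read at 137, 69.2, 41.9 and 31.2 CPM and fell in both indisulam comparisons (-1.70 and -1.15). LPCAT3, a lysophospholipid acyltransferase and known LXR target, was read at 77.2, 70.8, 24.4 and 11.8 CPM and fell in both indisulam comparisons (-1.66 and -2.57), with 66.0% of its exonic bases opposite EMG1.

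The 19 members called in no comparison were 12 of the 18 synthesis enzymes, GGPS1, 2 of the 5 control genes, 2 of the 4 transport genes and 2 of the 3 genes of LXR and receptor decay. Among these 19 palbociclib ratios ran from -0.97 to 0.35, indisulam ratios from -0.69 to 0.64, and combination ratios from -0.76 to 0.59. The share of all genes tested that were called in no comparison is not given here. The count of 19 is therefore a listing and is not set against all genes.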

How the data were processed

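Poly(A) RNA of 4 SUM159 libraries was sequenced by the authors from strand-specific libraries. The study's methods give single-end 65 bp reads aligned to hg38 for one set of experiments and paired-end reads from another instrument for the splicing analysis, and which applies to these libraries is not stated. Per the submitters' processing notes, TopHat2 2.1 and HTSeq were used with GRCh38. The paper names an aligner other than TopHat2 for the splicing analysis and none for the other experiments. The strand setting and annotation release are not given in the sources used here. The deposited values are raw counts of reads per Ensembl gene. Reads at several places or in several genes were not counted. The series text speaks of technical duplicates, and whether a library pools them is not stated.

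Counts were divided by total gene counts, the scaling the study names, and multiplied by the mean total (Python 3.11.15, numpy 2.4.6, scipy 1.17.1, matplotlib 3.10.9). Genes with a mean of at least 1 CPM were tested, 14269 of 29056 with any count. Log2 ratios used a pseudocount of 1 scaled count, or 0.071 CPM, which understates changes of low genes. Intervals were 95% exact (Clopper-Pearson) binomial intervals of raw counts, and by the delta method for departures. The code was tested on simulated data. A gene with 3 counts stood at 0.180 to 0.239 CPM. The groups came from the labels. No p-value was computed, since each condition had 1 library.

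The members and lists were chosen with earlier results of these data known. Values in all libraries are printed for each member called in any of 5 comparisons and for INSIG1, INSIG2, SREBF1, SREBF2 and SCAP. Genes outside the members are named where called in the same direction in both comparisons of a drug that share no library. Some genes of these lists are not reported here. HMGCS1, SC5D and the other members named with single values, NPC1, NPC2 and MYLIP among them, were picked after their values were seen. Alternatives were 3 other scalings, a pseudocount of 5, a minimum of 5 CPM, no minimum and a threshold of 1.5-fold.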

Additional observations from a re-analysis of the deposited data

Results flagged for a closer look

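SOAT1 stood out because the effect of each drug on it differed with the other drug present, by a departure from additivity of 1.28 (counting interval 1.10 to 1.47) on the log2 scale. Palbociclib had a log2 ratio of -0.56 without indisulam and 0.73 with it, and indisulam had 0.09 without palbociclib and 1.37 with it. With 1 library per condition the difference was measured against counting error only, not against replicates, and no explanation was tested.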

How the results depend on the processing

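No paired analysis was possible because each condition had 1 library and the labels give no replicate numbers, and for the same reason no library could be left out. No called ratio changed sign under any alternative run. Under other scalings 4 uncalled ratios near 0 turned negative, with TMM SCAP (0.03 to -0.04 with indisulam, 0.05 to -0.04 with the combination), MYLIP (0.03 to -0.04 with indisulam) and FDFT1 (0.02 to -0.08 for the combination against palbociclib). With TMM, median-of-ratios or upper-quartile factors, 5 members in place of 3 were lower with indisulam, as INSIG1 and ACAT2 passed 2-fold (-1.05 and -1.02 with TMM), and with TMM SREBF2 also passed for the combination against palbociclib (-1.01). At 1.5-fold, 14 members were lower with palbociclib. With indisulam 9 were lower and 1 higher (17.2% of all genes). The combination then had 2 higher against untreated (6.45%, and 22.9% of all genes) and 3 against palbociclib (9.68%, and 18.2%). Against indisulam 8 were lower and 1 higher (12% of all genes), and 2 departures lay below the sum and 7 above (9.56% and 9.03% of all genes). More genes are called at 1.5-fold by construction. A pseudocount of 5, a minimum of 5 CPM and no minimum left every count of members within 1.5 times. The members' median moved by at most 0.10 under another scaling. Depth limits TM7SF2, HSD17B7 and CYP51A1, with 24 to 115 reads, and GRAMD1C outside the members, with 8 to 85 reads.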
